A study of Paeonia lactiflora with 9 samples.

Results

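Seeds of the herbaceous peony ‘Hangshao’ (Paeonia lactiflora) at 90 days after flowering (DAF), the late stage of seed development, were compared with seeds at 30 DAF, the early stage, across all unigenes expressed at either stage. A unigene is a transcript sequence of the study's own assembly, made without a reference genome. A unigene was compared when it had at least 0.5 FPKM (mapped fragments, relative to the length of the unigene and the size of the library) in at least 3 of the 6 libraries, which held for 50333 of the 125685 unigenes of the series. This filter lets through unigenes present at only 1 stage.

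The samples were whole seeds of a single cultivar, with 3 libraries at 30 DAF and 3 at 90 DAF, with no treatment named for either stage. The series also holds 3 libraries at 60 DAF, which were not part of the comparison. According to the methods, all seeds were taken from the same plant, so the errors and p-values measure the spread between these libraries and need not cover other plants. A whole seed holds seed coat, endosperm and embryo, and in such bulk samples a change in the share of a tissue and a change in RNA per cell cannot be told apart.

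Oil seeds make fatty acids in the plastid from acetyl-CoA, through acetyl-CoA carboxylase and the fatty acid synthase complex. Desaturases then introduce double bonds: stearoyl-ACP desaturase (SAD) makes oleic acid, FAD2 makes linoleic acid and FAD3 makes α-linolenic acid. Acyltransferases build triacylglycerol from these acids in the endoplasmic reticulum, and the oil is stored in oil bodies coated by oleosins and caleosins. Late in development seeds turn from growth and deposition to maturation and drying.

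Some sequences that identify the unigenes are given first. The study's primer pairs for qRT-PCR mark 3 of the desaturases and an abundant oleosin, whose values follow below. Every base is in lower case because no part of a primer is singled out.
SAD Unigene13977 forward primer: cacttgaacatgcacctcccg
SAD Unigene13977 reverse primer: aaatctttccctgtgtgtcttccgg
FAD2 CL2636.Contig4 forward primer: gccaacagtgtcatcaac
FAD2 CL2636.Contig4 reverse primer: tccacctccttcctcatc
FAD3 CL2686.Contig5 forward primer: ctcttccctcaaatccca
FAD3 CL2686.Contig5 reverse primer: ggtcttgattgatgctcc
Oleosin CL8973.Contig3 forward primer: ttgaccactgggtttcttgcttcc
Oleosin CL8973.Contig3 reverse primer: caaactgctccgccttgtcctt

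The libraries of the same stage resembled each other far more than those of different stages. Across the compared unigenes, on the log2(FPKM + 0.5) scale, Pearson's r lay between 0.942 and 0.953 for pairs at 30 DAF, between 0.816 and 0.859 for pairs at 90 DAF, and between 0.593 and 0.618 for pairs of different stages. It runs over unigenes and not over replicates. The 90 DAF libraries were the more variable, with a median SD of 0.39 on the log2 scale against 0.28 at 30 DAF, and the SD was larger at 90 DAF for 64.5% of the unigenes. Read counts were not analysed here. Relative depth was taken from the most frequent ratio of low FPKM values between each library and replicate 1 at 30 DAF. The inverse of that ratio was 0.933 to 1 at 30 DAF and 0.871 to 0.933 at 90 DAF. This is an indirect estimate, and the study reports nearly equal totals of clean reads for these libraries. An FPKM of 0 is written below as listed at 0, which is not absence.

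From 30 to 90 DAF, 15507 unigenes were differentially expressed genes (DEGs), 7089 higher and 8418 lower at 90 DAF. A unigene counted as a DEG when log2(FPKM + 0.5) differed by 1 or more between the stages and limma's moderated test gave an adjusted p no greater than 0.05 (Benjamini-Hochberg, over all compared unigenes). Because of the added 0.5, changes of low unigenes come out smaller than they are. The DEGs made up 30.8% of the compared unigenes, 14.1% higher and 16.7% lower at 90 DAF, and these shares are the background for every count below. The libraries of the 2 stages did not overlap in 15495 of the 15507 DEGs, against 50.4% of all compared unigenes.

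The balance of higher and lower DEGs depended on scaling. On the deposited FPKM the median unigene changed by 0.08 on the log2 scale, and under median-of-ratios scaling, which sets each library to the median ratio of its unigenes, by -0.10. Rescaling gave 5515 higher and 9719 lower DEGs, or 11% and 19.3% of the compared unigenes. The share of higher DEGs fell from 45.7% to 36.2%. The same direction was called under both scalings for 13933 unigenes, 5515 higher and 8418 lower, and no unigene was a DEG in opposite directions. The values below are on the deposited scale, and counts under median-of-ratios scaling are added where they differ for a group that is described.

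Large falls outnumbered large rises. Among the DEGs, 992 fell and 380 rose by at least 4 on the log2 scale, and 73 fell and 33 rose by at least 8. At 90 DAF 1349 DEGs were listed at 0 in all 3 libraries, and at 30 DAF 405 were. Since a change from a stage at 0 is set by the 0.5 that was added, such changes are given below by their FPKM and not as a fold.

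**Figure D1:**
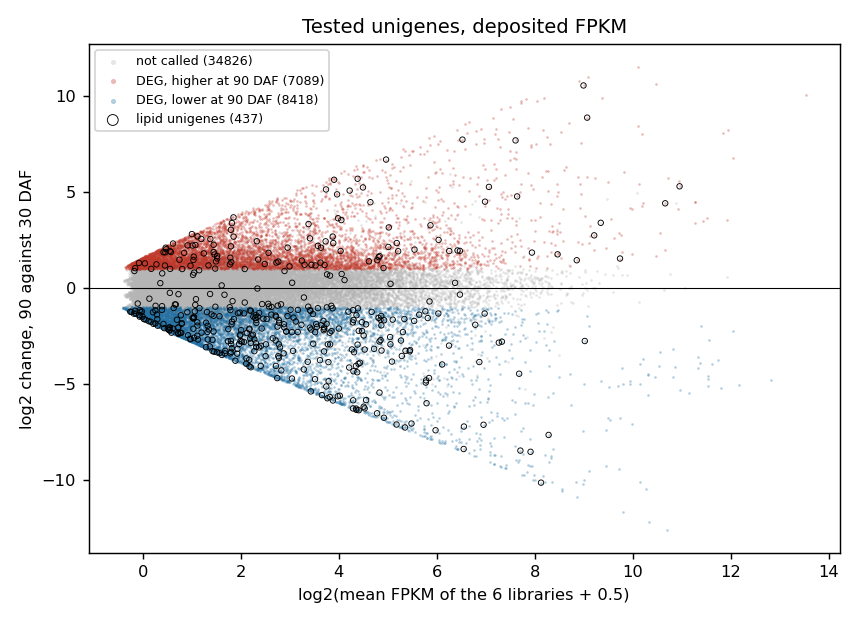
Each of the 50333 compared unigenes is a point, with log2 of its mean FPKM over the 6 libraries plus 0.5 across and its log2 change from 30 to 90 DAF upward. Red points are the 7089 DEGs higher at 90 DAF, blue points the 8418 lower, grey points were not called, and black circles mark the 437 compared lipid unigenes, most of which lie below 0.

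The most abundant transcripts differed between the stages. Of the 915 unigenes with a mean of at least 100 FPKM at 30 DAF, 463 were DEGs lower at 90 DAF and 51 were DEGs higher, and of the 903 at that level at 90 DAF, 435 were higher and 45 lower. From 1000 FPKM upward, 51 of the 56 unigenes at 30 DAF were DEGs lower at 90 DAF and 0 were DEGs higher in the limma test. The 1 that was higher at an unadjusted p under 0.05, Unigene16834, changed by 0.58 (adjusted p = 0.013 in limma), under the limit of 1 for a DEG. Of the 59 at that level at 90 DAF, 45 were higher and 2 lower. Choosing unigenes for a high level at 1 stage favours a lower level at the other, so these counts are a description. The DEGs that fell held 54.3%, 50.1% and 54.1% of all FPKM in the 3 libraries at 30 DAF and 5.08%, 5.50% and 5.50% at 90 DAF. The DEGs that rose held 6.23%, 6.58% and 6.28% at 30 DAF and 47.2%, 47.2% and 47.7% at 90 DAF. Such shares follow from how DEGs were called and are given as a description of size.

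The share of unigenes called grew with abundance. Among unigenes with a mean under 1 FPKM over the 6 libraries, 10.4% were higher and 12.8% lower at 90 DAF. Among the 939 with a mean of at least 100 FPKM, 27.4% were higher and 28.4% lower.

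The largest changes outside the study's lists of annotated DEGs were in unigenes for which the sources used here give no name. Unigene40878 had 21.4, 22.8 and 20.9 FPKM at 30 DAF and 28206.5, 19267 and 23212 FPKM at 90 DAF. It was the most abundant transcript of each 90 DAF library, holding 4.06%, 2.80% and 3.31% of all FPKM. CL10042.Contig1 went from 0.16, 0.41 and 0.23 FPKM to 1968, 1973 and 2693 FPKM, a change of 11.49 ± 0.19 (SE, adjusted p = 1.1e-06 in limma). In the other direction, CL4133.Contig8 had 2002, 4438 and 1312 FPKM at 30 DAF and was listed at 0 in each 90 DAF library. CL4099.Contig1 had 1693, 1737 and 1925 FPKM at 30 DAF against 0.20, 0 and 0 at 90 DAF.

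Lipid metabolism was followed with 503 unigenes that the study annotated to lipid pathways, grouped here by role, of which 437 were compared. Between 30 and 90 DAF 96 of them rose, 283 fell and 58 were not DEGs, with a median change of -1.61 against 0.08 for all compared unigenes. Median-of-ratios scaling gave 88 higher and 299 lower, and moved the count of no role in either direction by more than 3. The study had drawn these unigenes from DEGs of the same libraries, so the high share called is not independent evidence, and the counts are read here for direction and size.

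**Figure D2:**
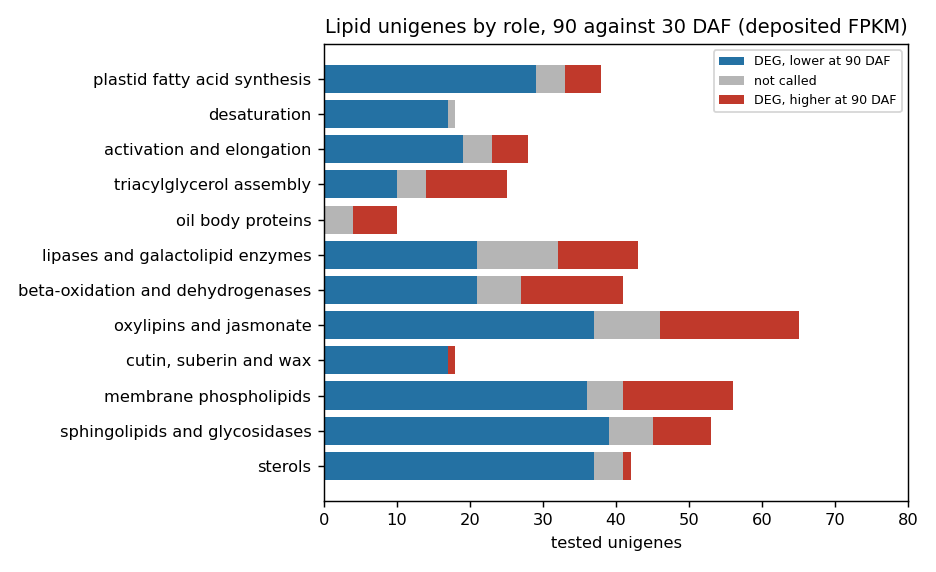
Bars show the number of compared lipid unigenes in each of 12 roles, split into DEGs lower at 90 DAF (blue), unigenes not called (grey) and DEGs higher at 90 DAF (red). Desaturation had 17 lower and 0 higher, oil body proteins 6 higher and 0 lower, and triacylglycerol assembly 11 higher and 10 lower.

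The DEGs of fatty acid synthesis, which runs in the plastid, were lower at 90 DAF at every step other than KAR and BCCP, which had DEGs in both directions. Of 38 compared unigenes, 29 fell and 5 rose, with a median change of -2.14, and 31 fell under median-of-ratios scaling. The list includes 1 unigene annotated to a mitochondrial reductase, which was not a DEG. Biotin carboxylase (BC), the subunit of acetyl-CoA carboxylase that charges biotin, had a summed level of 77.1, 87.8 and 92.4 FPKM at 30 DAF against 4.70, 3.44 and 4.11 FPKM at 90 DAF, and its 5 unigenes all fell. The carboxyltransferase α-subunit (α-CT) fell in 3 of 3 unigenes. Malonyl-CoA:ACP transacylase (MCAT, Unigene20202), which loads malonate onto the acyl carrier protein, had 21.6, 20.6 and 19.0 FPKM against 3.79, 5.06 and 4.94 FPKM, a change of -2.05 ± 0.17 (SE, adjusted p = 0.00028 in limma). No library of either stage reached the range of the other for any of these.

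The condensing and reducing enzymes did not all fall by the same amount. Ketoacyl-ACP synthase III (KASIII, Unigene37345), which starts the chain, fell by 1.68 ± 0.16 on the log2 scale. Ketoacyl-ACP synthase II (KASII), which extends palmitate to stearate, fell in 3 of 4 unigenes, or 4 under median-of-ratios scaling, the largest of them CL14889.Contig1 with 55.8, 64.2 and 68.8 FPKM against 3.78, 3.54 and 4.60 FPKM. The last reduction of each cycle is made by enoyl-ACP reductase (EAR). Its 3 unigenes summed to 92.3, 105 and 102 FPKM at 30 DAF and to 0.15, 1.59 and 1.79 FPKM at 90 DAF. The thioesterases that release the finished chain fell less than EAR, by values that were not tested against each other. FATA CL14443.Contig1 changed by -1.94 ± 0.18 and FATB Unigene26774, which prefers saturated chains, by -1.21 ± 0.16, with 69.4, 83.5 and 73.5 FPKM against 31.0, 38.4 and 27.9 FPKM.

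Among the synthase steps, 3-oxoacyl-ACP reductase (KAR), the first reduction of the cycle, had DEGs in both directions, 4 higher and 2 lower among 7. The main unigene at 30 DAF, Unigene20183, fell from 165, 191 and 164 FPKM to 45.7, 38.8 and 53.7 FPKM, a change of -1.91 ± 0.15. CL2376.Contig2, annotated to the same enzyme, rose from 1.10, 4.39 and 0.59 FPKM to 1415, 449 and 1349 FPKM. In replicate 2 at 90 DAF the contig of the same cluster CL2376.Contig1 held 497 FPKM, against 1.39 and 1.94 FPKM in replicates 1 and 3. Contigs of 1 cluster are similar transcripts between which the authors' estimation can divide reads, so the cluster's sum is the steadier measure. It was 5.02, 8.67 and 8.06 FPKM at 30 DAF and 1418, 946 and 1351 FPKM at 90 DAF, a change of 7.33 ± 0.24 (adjusted p = 3.3e-06 in limma on cluster sums). This cluster alone set the direction of the summed level of plastid synthesis, which was 975 ± 48.8 FPKM at 30 DAF and 1420 ± 264 FPKM at 90 DAF (SD, n = 3). Without it the sum was 968 ± 47.1 FPKM against 182 ± 9.52 FPKM.

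The biotin carboxyl carrier protein (BCCP), which carries biotin between the subunits of acetyl-CoA carboxylase, also had unigenes that moved apart. Of its 7 unigenes in the study's list of oil-pathway genes 5 fell and 1 rose, and under median-of-ratios scaling 6 fell. That list was drawn from DEGs. The study's table of BCCP sequences, as available here, holds 16 unigenes and lacks Unigene23603. Of the 13 that were compared, 4 were lower, 1 higher and 8 were not DEGs. Unigene23603 had 48.5, 47.0 and 52.9 FPKM at 30 DAF and 9.97, 5.95 and 6.10 FPKM at 90 DAF. CL14917, the other abundant form, had a cluster sum of 69.2, 95.4 and 73.1 FPKM against 4.23, 3.68 and 5.01 FPKM. The low-abundance contigs CL6718.Contig4 and CL750.Contig2 differed in direction. CL6718.Contig4 rose from 0.53, 0.18 and 0 FPKM to 3.23, 3.21 and 2.0 FPKM (2.21 ± 0.36, adjusted p = 0.0039 in limma), and CL750.Contig2 fell from 7.36, 4.41 and 8.68 FPKM to 1.81, 1.22 and 0.59 FPKM (-2.12, adjusted p = 0.0058 in limma). Both were below Unigene23603 in every library at 30 DAF. The sum over CL6718 rose by 1.16 ± 0.22 and would be 0.94 under median-of-ratios scaling, below the limit for a DEG. The 3 contigs of CL4684 did not pass the test, with changes of -1.30, 0.00 and -0.02.

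Desaturation fell furthest of the 12 roles by its median, -3.79. Of 18 compared unigenes 17 fell and 0 rose in the limma test, also under median-of-ratios scaling, and 0 were higher at an unadjusted p under 0.05. Their summed level was 2325 ± 146 FPKM at 30 DAF and 57.1 ± 19.1 FPKM at 90 DAF (SD, n = 3). At 30 DAF the unigenes of SAD, FAD2 and FAD3 summed to 433 ± 13.8, 786 ± 198 and 1006 ± 99.4 FPKM, and at 90 DAF to 48.3 ± 19.2, 5.88 ± 2.13 and 2.29 ± 1.11 FPKM.

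Of the desaturases SAD kept the largest share of its summed level. Unigene13977 had 188, 218 and 247 FPKM at 30 DAF against 19.8, 10.7 and 14.4 FPKM at 90 DAF, a change of -3.85 ± 0.24 (adjusted p = 9.6e-05 in limma). All 4 compared SAD unigenes fell, and their sum was 9.0 times lower at 90 DAF. FAD2 CL2636.Contig4 fell from 785, 405 and 666 FPKM to 3.95, 1.36 and 2.72 FPKM, a change of -7.64 ± 0.38 (adjusted p = 4.4e-05). All 7 compared FAD2 unigenes fell, their sum being 134 times lower. FAD3 CL2686.Contig6 went from 439, 520 and 481 FPKM to 1.76, 0.39 and 0.61 FPKM (-8.52 ± 0.34, adjusted p = 2.1e-05), and the FAD3 sum was 439 times lower. The differences between the enzymes were not tested.

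The FAD3 contig with the study's primers, CL2686.Contig5, was not a DEG with the 6 libraries. It had 54.5, 270 and 0.66 FPKM at 30 DAF and 0, 0.81 and 0.71 FPKM at 90 DAF, so that replicate 3 at 30 DAF fell within the range of 90 DAF. It became a DEG without that library (-7.04, adjusted p = 0.0040 in limma) and with all 9 libraries in the model (-4.80, adjusted p = 0.049). The sum over cluster CL2686 was even in the 30 DAF libraries at 906, 1106 and 1012 FPKM, against 4.01, 2.04 and 2.70 FPKM at 90 DAF (-8.24 ± 0.22). The plastid ω-3 desaturases FAD7 and FAD8 lay far lower. FAD7 CL13349.Contig2 fell from 10.9, 9.05 and 9.93 FPKM to 0.46, 0.32 and 0.41 FPKM. FAD8 Unigene34203 had 50.5, 30.3 and 43.4 FPKM at 30 DAF and was listed at 0 in each 90 DAF library.

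**Figure D3:**
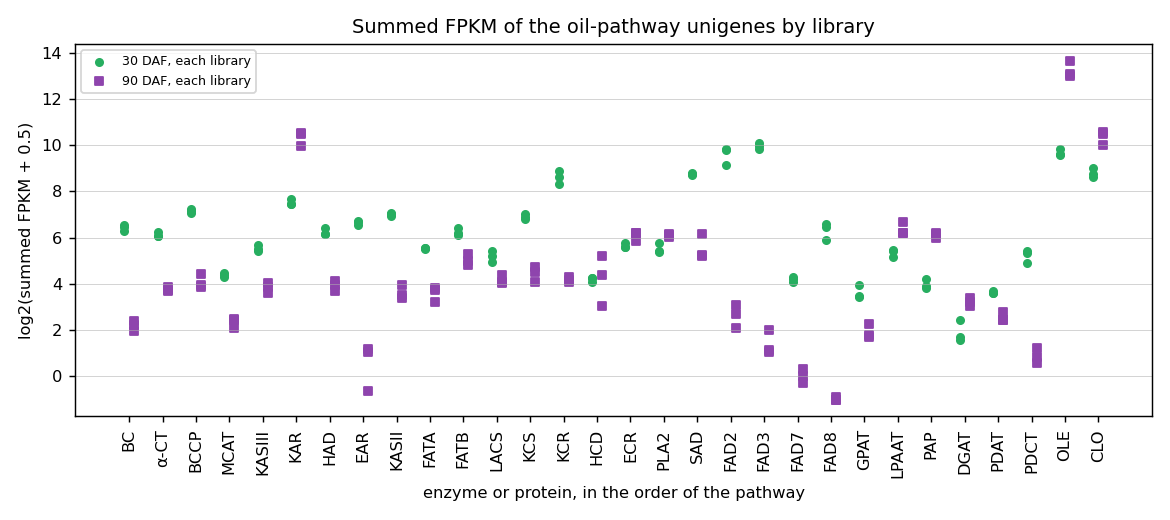
Points give log2 of the summed FPKM plus 0.5 of the unigenes of each enzyme in the study's oil-pathway list, in each of 3 libraries at 30 DAF (green circles) and 3 at 90 DAF (purple squares), with enzymes in pathway order. KAR, PAP, oleosin (OLE) and caleosin (CLO) are among those higher at 90 DAF, FAD2 and FAD3 lie 134 and 439 times lower, and only HCD overlaps between the stages.

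Elongation of fatty acids beyond the usual chain length fell at its first steps. Ketoacyl-CoA synthase (KCS), which sets the length of very-long-chain acids, fell in 10 of 12 unigenes, and in 12 under median-of-ratios scaling. KCS CL14039.Contig2 had 56.1, 56.9 and 51.9 FPKM at 30 DAF against 2.07, 0.41 and 0.39 FPKM. Ketoacyl-CoA reductase (KCR) fell in 4 of 4, with CL15103.Contig1 at 471, 312 and 394 FPKM against 17.1, 15.9 and 18.4 FPKM (-4.46 ± 0.17). The last steps were mixed. For enoyl-CoA reductase (ECR), Unigene30380 fell by 2.23 ± 0.22 and CL3941.Contig3 rose from 10.7, 13.5 and 15.5 FPKM to 48.8, 43.8 and 35.8 FPKM. For hydroxyacyl-CoA dehydratase (HCD), CL6818.Contig4 fell by 3.09 ± 0.34, while the rise of CL6953.Contig3 (3.33 ± 0.76, adjusted p = 0.015) was lost when any 1 of the 30 DAF libraries was left out (3.31, 3.26 and 3.41, with adjusted p = 0.057, 0.060 and 0.052 in limma) and the sum of its cluster changed by 0.25 (adjusted p = 0.41).

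Triacylglycerol assembly was the most evenly divided of the 12 roles, with 11 unigenes higher and 10 lower among 25. Under median-of-ratios scaling 10 were higher and 13 lower, so that the majority turned. Its summed level was 199 ± 9.71 FPKM at 30 DAF and 231.7 ± 12 FPKM at 90 DAF (SD, n = 3), a ratio of 1.17 that became 0.98 under median-of-ratios scaling. The direction differed between steps. Glycerol-3-phosphate acyltransferase (GPAT), which adds the first acyl chain, fell in 3 of 3 unigenes, with Unigene30381 at 7.02, 9.91 and 6.29 FPKM against 3.23, 2.09 and 1.5 FPKM (-1.59 ± 0.30, adjusted p = 0.0074). Phosphatidate phosphatase (PAP), which makes diacylglycerol, rose in 4 of 4, or 3 under median-of-ratios scaling. PAP CL3787.Contig2 had 3.38, 4.45 and 3.24 FPKM against 21.1, 22.7 and 21.8 FPKM (2.43 ± 0.17, adjusted p = 0.00015).

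The final acylation also divided. Diacylglycerol acyltransferase (DGAT, CL6160.Contig2), which uses acyl-CoA, rose from 2.73, 4.95 and 2.44 FPKM to 7.68, 10.1 and 8.90 FPKM (1.32 ± 0.28, adjusted p = 0.011). Phospholipid:diacylglycerol acyltransferase (PDAT, Unigene43934), which takes the chain from a phospholipid, fell from 11.5, 12.5 and 11.5 FPKM to 6.24, 4.52 and 4.63 FPKM (-1.14 ± 0.18, adjusted p = 0.0033). The cholinephosphotransferase PDCT (CL13909.Contig1), which in Arabidopsis passes polyunsaturated chains from phosphatidylcholine to diacylglycerol, fell from 39.4, 29.4 and 42.2 FPKM to 1.01, 1.29 and 1.81 FPKM (-4.33 ± 0.23). For lysophosphatidate acyltransferase (LPAAT), which adds the second chain, CL3672.Contig1 rose by 1.61 ± 0.16 while its cluster sum rose by 0.99, just under the limit. LPAAT CL10192.Contig1 fell by 1.30 ± 0.31 (adjusted p = 0.072 and 0.066 in limma without replicate 1 or 2 at 30 DAF), but the sum of its cluster changed by 0.49, the other way.

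Among the listed unigenes, the oil body proteins were the role with DEGs in the upward direction alone. Of the 10 oil body unigenes 6 rose and 0 fell in the limma test, also under median-of-ratios scaling. At an unadjusted p under 0.05, 0 of these proteins fell. They had been set as the check that the libraries are of seed tissue, and the sums of oleosin and of caleosin were above 0 in each library. The study drew these unigenes from DEGs of the same libraries, so this check could hardly fail and does not tell seed from other tissue. The summed level of the oil body proteins was 1312, 1193 and 1300 FPKM at 30 DAF and 9494, 9588 and 14355 FPKM at 90 DAF. Oleosin CL8973.Contig3 had 148, 124 and 164 FPKM at 30 DAF against 2693, 2981 and 3606 FPKM at 90 DAF, a change of 4.41 ± 0.16 (adjusted p = 1.5e-05 in limma). The oleosins Unigene26649 and Unigene23397 were the higher ones at 30 DAF, at 300.4, 211 and 240.1 FPKM and at 168, 153 and 157 FPKM, and rose less, by 1.44 and 1.75.

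The contigs of oleosin cluster CL8973 divided their level unevenly. CL8973.Contig1 had 2166, 2299 and 7098 FPKM at 90 DAF, and CL8973.Contig2 had 1705, 1956 and 43.6 FPKM, so replicate 3 was high in the first and low in the second. CL8973.Contig2 was not a DEG (adjusted p = 0.14 in limma). Over the cluster the sum was 445, 394 and 380 FPKM against 6703, 7436 and 11634 FPKM, a change of 4.36 ± 0.25 (adjusted p = 2.7e-05). Caleosin, which binds calcium and sits in the oil body membrane, rose less. CL6205.Contig10 had 383, 418 and 507 FPKM at 30 DAF against 1386, 977 and 1456 FPKM (1.53 ± 0.20, adjusted p = 0.0016). Of the 8 compared contigs of cluster CL6205, 2 were DEGs higher and 1, outside the listed oil body proteins, was a DEG lower. The sum of this cluster rose by 1.54 ± 0.20 (adjusted p = 0.00088 in limma on cluster sums).

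**Figure D4:**
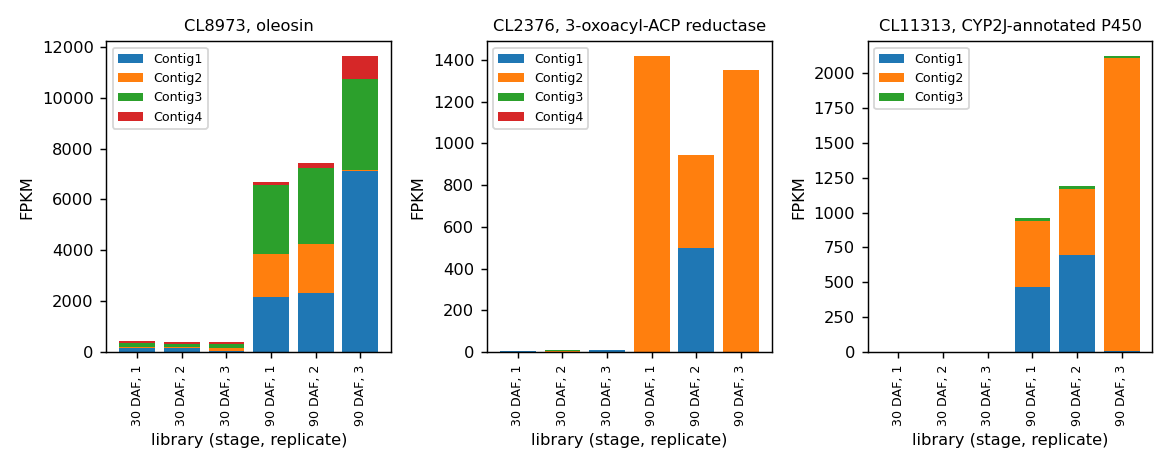
Stacked bars give the FPKM of each contig of 3 clusters in the 6 libraries: oleosin CL8973, 3-oxoacyl-ACP reductase CL2376 and the P450 cluster CL11313. Replicate 3 at 90 DAF holds little of CL8973.Contig2 and of CL11313.Contig1, replicate 2 at 90 DAF holds 497 FPKM in CL2376.Contig1, and the summed bars are higher at 90 DAF in each cluster.

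**Figure D5:**
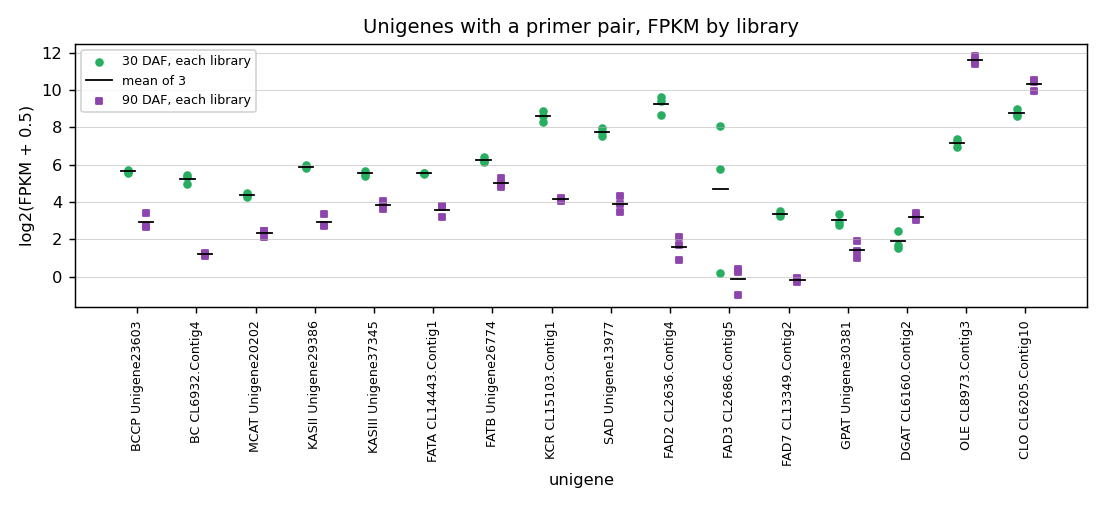
Points give log2(FPKM + 0.5) of the 16 unigenes with the study's primers in each library at 30 DAF (green circles) and 90 DAF (purple squares), with black bars for the mean of 3. Oleosin, caleosin and DGAT are higher at 90 DAF, FAD3 CL2686.Contig5 overlaps, and the other 12 are lower at 90 DAF.

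Lipases and galactolipid enzymes had 11 unigenes higher and 21 lower among 43, and median-of-ratios scaling gave 9 and 22. Acylglycerol lipase, which frees a fatty acid from a monoacylglycerol, had 8 higher and 10 lower among 24 (11 lower after that scaling). Unigene34190 fell from 147, 115 and 111 FPKM to 0.24, 0.04 and 0.49 FPKM and Unigene44448 from 93.4, 81.2 and 67.2 FPKM to 0, 0.04 and 0.04 FPKM. Unigene7042 rose from 0, 0 and 0.37 FPKM to 7.87, 5.86 and 4.08 FPKM. The α-galactosidases, which remove galactose from oligosaccharides and galactolipids, fell in 6 of 6 unigenes with a sum of 117, 127 and 117 FPKM against 33.0, 39.7 and 34.2 FPKM.

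Fatty acid β-oxidation and the dehydrogenases had 14 higher and 21 lower among 41. Acyl-CoA oxidase, the first enzyme of β-oxidation in the peroxisome, had 2 unigenes higher and 1 lower among 3. Its abundant form Unigene23060 rose from 34.5, 36.9 and 36.0 FPKM to 178, 106 and 138 FPKM (1.93, adjusted p = 0.00063 in limma). Acetyl-CoA acyltransferase 1, another enzyme of β-oxidation, fell in its 1 compared unigene (-1.71). Its summed level was 15.4, 24.1 and 16.6 FPKM at 30 DAF against 10.3, 7.51 and 4.39 FPKM at 90 DAF. Alcohol dehydrogenase class-P, which reduces acetaldehyde when oxygen is short, had 6 unigenes higher and 10 lower among 17. Its summed level was 2213 ± 76.5 FPKM at 30 DAF and 1227 ± 351 FPKM at 90 DAF (SD, n = 3). Cluster CL585 summed to 1982, 2012 and 1857 FPKM at 30 DAF and 202, 265 and 242 FPKM at 90 DAF (-3.05 ± 0.15). The single contig CL656.Contig5 rose, from 131, 157 and 159 FPKM to 1422, 695 and 993.3 FPKM (2.74, adjusted p = 0.00053). The sum of its cluster is not given here. Within CL585 the contig CL585.Contig6 had 586, 559.1 and 530 FPKM at 30 DAF and was listed at 0 in each 90 DAF library, while CL585.Contig5 fell from 909, 945 and 857 FPKM to 114, 153 and 136 FPKM.

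The oxylipin and jasmonate unigenes had 19 higher and 37 lower among 65 (17 and 40 under median-of-ratios scaling), yet their summed level rose from 723, 1512 and 821 FPKM to 2394, 2922 and 3926 FPKM. Of the 19 higher, 16 had 1 of 2 annotations, a cytochrome P450 annotated as family 2 subfamily J, a family described in animals, and soluble epoxide hydrolase, which opens epoxides of fatty acids. Without them 3 rose and 34 fell, and the sum was 552, 1325 and 638 FPKM against 370, 360 and 356 FPKM. The P450 annotation had 10 higher and 1 lower among 11. Cluster CL11313 rose from 0.05, 0.03 and 0.08 FPKM to 958, 1194 and 2124 FPKM (11.25 ± 0.28, adjusted p = 1.2e-06 on cluster sums). Epoxide hydrolase had 6 higher and 2 lower among 9, and 5 and 3 under median-of-ratios scaling. Its Unigene44412 rose from 11.4, 13.8 and 15.4 FPKM to 297, 437 and 419 FPKM (4.76, adjusted p = 2.1e-05), while Unigene16720 fell from 47.8, 54.6 and 54.8 FPKM to 6.57, 5.63 and 3.42 FPKM.

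The enzymes of jasmonate synthesis did not all move together. Allene oxide cyclase fell in 3 of 3 unigenes and 12-oxophytodienoic acid reductase, which acts next, in 4 of 5, or 5 under median-of-ratios scaling. Hydroperoxide dehydratase (allene oxide synthase), which acts just before the cyclase, was higher in its 1 compared unigene and summed to 0, 0.32 and 0.05 FPKM at 30 DAF and 2.36, 1.07 and 2.04 FPKM at 90 DAF. Lipoxygenases, which oxygenate linoleic and linolenic acid, had 7 lower and 0 higher among 12 under the general annotation in the limma test (1 higher at an unadjusted p under 0.05), and their sums overlapped between the stages. The 9S-lipoxygenases, whose products are not those used for jasmonate, had 6 lower and 1 higher among 7, the higher being lost under median-of-ratios scaling. Replicate 2 at 30 DAF stood apart for lipoxygenase, with 331 FPKM of Unigene18961 against 8.70 and 57.2 FPKM in replicates 1 and 3, and 351 FPKM of Unigene5976 against 2.38 and 27.6 FPKM. Neither of these was a DEG. Jasmonate O-methyltransferase, which makes methyl jasmonate, changed form within cluster CL16109. CL16109.Contig4 had 35.9, 43.5 and 35 FPKM at 30 DAF and was listed at 0 at 90 DAF, and CL16109.Contig3 rose from 0.59, 0.14 and 0.44 FPKM to 193, 180.0 and 175 FPKM. The cluster's sum rose by 1.39 ± 0.11 (adjusted p = 0.00013).

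Cutin, suberin and wax, the lipids of the seed surface, were lower in 17 of 18 compared unigenes, with a median change of -2.94. The fatty acyl-CoA reductase CL244.Contig2, which makes fatty alcohols for wax and suberin, had 40.1, 36.5 and 43.6 FPKM at 30 DAF and was listed at 0 at 90 DAF. The peroxygenase CL6439.Contig1 fell from 33.7, 48.4 and 32.0 FPKM to 0.42, 0.06 and 0.06 FPKM. The single rise was CL7151.Contig1, from 6.21, 5.92 and 6.82 FPKM to 21.4, 27.6 and 27.5 FPKM (1.93 ± 0.16, adjusted p = 0.00030 in limma). Its annotation names both wax-ester synthase, which joins fatty alcohols to acyl chains, and diacylglycerol O-acyltransferase.

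Sterol synthesis was nearly as uniform, with 37 lower and 1 higher among 42 (39 lower under median-of-ratios scaling) and a summed level of 1022 ± 46.0 FPKM at 30 DAF against 185 ± 17.9 FPKM at 90 DAF (SD, n = 3). Squalene synthase, annotated as farnesyl-diphosphate farnesyltransferase and the first enzyme committed to sterols, had 12 lower (13 under that scaling) and 1 higher among 15. CL13056.Contig1 fell from 198, 189 and 171 FPKM to 1.20, 0.09 and 1.5 FPKM (-7.21 ± 0.46). The single rise, CL2992.Contig3, reached only 1.73, 3.58 and 3.62 FPKM. Squalene monooxygenase, which acts next, fell in 4 of 4 and cycloartenol synthase in 5 of 6, or 6 under median-of-ratios scaling.

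Membrane phospholipid metabolism had 15 higher and 36 lower among 56. Phospholipase C fell in 5 of 5 unigenes, its sum being 192, 178 and 172 FPKM against 10.3, 21.4 and 16.3 FPKM, and phospholipase D in 7 of 8, with 1 higher. Phosphoethanolamine N-methyltransferase CL10135.Contig2, which methylates toward phosphocholine, fell from 36.1, 50.8 and 46.3 FPKM to 0.06, 0.17 and 0.12 FPKM. Choline kinase, which also makes phosphocholine but from free choline, was higher in 3 of 4 unigenes, all of cluster CL1012, with CL1012.Contig1 at 13.8, 14.6 and 13.9 FPKM against 35.2, 52.9 and 32.2 FPKM. A diphosphatase annotated for ADP-ribose and CDP-alcohols rose in cluster CL15410, from 1.03, 1.22 and 0.94 FPKM to 28.5, 84.0 and 65.6 FPKM (5.13 ± 0.39).

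Sphingolipid enzymes and glycosidases had 8 higher and 39 lower among 53. Most of the members were β-galactosidases, which trim galactose from cell wall polysaccharides, with 23 lower and 5 higher among 31. CL8334.Contig1 had 200.1, 175 and 184 FPKM at 30 DAF against 0.17, 0 and 0.03 FPKM, and Unigene34170 rose from 0.17, 0.04 and 0 FPKM to 42.2, 21.3 and 23.1 FPKM. Among the enzymes of sphingoid bases and ceramides, ceramide synthetase fell in 3 of 3 unigenes and neutral ceramidase in 1 of 1. Sphinganine-1-phosphate aldolase fell in 2 of 3, or 3 under median-of-ratios scaling. Dihydroceramidase rose in its 1 unigene, and 3-dehydrosphinganine reductase had 1 higher and 1 lower. Sphinganine C4-monooxygenase had 4 lower and 1 higher. The higher, Unigene16750, was its most abundant, at 30.8, 34.4 and 28.2 FPKM against 94.7, 131 and 136 FPKM (1.92, adjusted p = 0.00043).

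Further pathways were followed with the 1698 unigenes that the study had called DEGs from 30 to 60 DAF and annotated to KEGG. Lipid unigenes were not taken out of this list, so some, such as the KAR cluster CL2376, are counted again here. The calls from 30 to 60 DAF share the 30 DAF libraries with the present comparison. The counts at 90 DAF are therefore a description and not independent evidence. Of 1487 compared, 368 were higher and 749 lower at 90 DAF, with a median change of -1.30. Biotin metabolism had 11 lower and 1 higher among 13, pentose and glucuronate interconversions, which include the pectin-degrading enzymes, 37 lower and 9 higher among 51, and glycolysis 24 lower and 8 higher among 39. The summed level went against these counts in the first 2. That of biotin metabolism was 280.0 ± 4.96 FPKM at 30 DAF and 1265 ± 257 FPKM at 90 DAF (SD, n = 3), and without the KAR cluster CL2376, which belongs to it, 274 ± 6.38 against 26.9 ± 2.98 FPKM. That of pentose and glucuronate interconversions was 1242 ± 110.0 FPKM and 8278 ± 1398 FPKM, of which Unigene40505 held 6386, 8274 and 9038 FPKM in the 90 DAF libraries, against 39.0, 27.6 and 16.3 FPKM at 30 DAF. Without it the sum was 1214 ± 101 FPKM against 379 ± 33.8 FPKM. Other pathways had more falls than rises but a higher sum at 90 DAF. Whether single unigenes made up these higher sums was not examined. The ribosome had 19 lower and 10 higher among 38, with 1403 ± 65.3 against 5411 ± 2019 FPKM. Protein processing in the endoplasmic reticulum had 36 lower and 19 higher among 87, with 4657 ± 514 against 13856 ± 3625 FPKM. Porphyrin and chlorophyll metabolism had 7 lower and 4 higher among 14, with 106 ± 12.2 against 186 ± 68.4 FPKM.

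DNA replication had 18 lower and 2 higher among 36 and mismatch repair 9 lower and 1 higher among 15. Median-of-ratios scaling gave 23 lower for DNA replication, and moved the counts of the other pathways, ABC transporters apart, by at most 3 in either direction. Hormone signal transduction had 52 lower and 28 higher among 101, starch and sucrose metabolism 39 lower and 18 higher among 77, and phenylpropanoid synthesis 36 lower and 25 higher among 76. The ABC transporters, which move hormones, lipids and other compounds across membranes, were the most evenly divided of the 18 pathways, with 13 lower and 12 higher among 35 and a median change of -0.03, and 13 and 8 under median-of-ratios scaling.

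Opposite changes within a cluster, as in jasmonate O-methyltransferase, were uncommon over the whole table. Of 8724 clusters with at least 2 compared contigs, 2483 had 2 or more DEGs, and 192 of these had DEGs in both directions. In 56 of the 192 the cluster's sum was itself a DEG. Summing contigs before the test gave 5084 higher and 5808 lower DEGs among 31404 clusters and single unigenes.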

How the data were processed

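The deposited values are FPKM, which the authors obtained from filtered reads by a de novo assembly, mapping of every library with Bowtie2 and estimation with RSEM. The sources used here do not give the versions. Table lines with no unigene (9) were left out, and column names gave the stages. Read counts were not used here, and limma 3.58.1 (R 4.3.3) was run on log2(FPKM + 0.5) of the 6 libraries, with empirical Bayes moderation allowing for a trend of variance on level.

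Members, lists and role groups were chosen with earlier results of these data known. Named unigenes were the 16 with primers, the 2 largest rises and falls of each role and outside the lists, and the most abundant, highest-rising and most-falling unigene of each enzyme. Some of these are printed, and others, such as Unigene23060, Unigene16720, Unigene40505, CL656.Contig5 and CL1012.Contig1, were added after their values were seen. Sums over a list carry no test. In simulated data with 200 altered unigenes among 50333, the test found 12% of those set to change by 1.5 (log2) and 65% of those set to 3, with 4 false calls. Far fewer unigenes changed there than the 15507 DEGs of the data, which makes the adjusted p stricter. These figures therefore do not give the share found or the false calls in the data. Alternatives were added values of 0.1 and 1, no filter or 1 FPKM, median-of-ratios and quantile scaling, all 9 libraries, a replicate block, no trend, robust moderation, cluster sums, an adjusted p of at most 0.01 and each library left out. Of the study's KEGG lists only that of 60 against 30 DAF was used. Tables and plots were made with Python 3.11.15, pandas 2.3.3, numpy 2.4.6 and matplotlib 3.10.9.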

Additional observations from a re-analysis of the deposited data

How the results depend on the processing

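The number of DEGs stayed within 1.5 times of 15507 in every alternative run, from 10892 with FPKM summed over clusters, which leaves fewer features, to 16720 without replicate 1 at 90 DAF. Leaving out a library gave 12883 to 16720. Of 77 named unigenes that were compared, 67 kept their call and direction in every alternative that could be run for them, the cluster sum being available for 53. The cluster sum turned the direction for CL10192.Contig1 (0.49) and CL16109.Contig4 (1.39), whose clusters hold contigs that rose. The calls of CL6953.Contig3, CL10192.Contig1, CL12271.Contig2 (annotated as a lipase) and Unigene14040 (an acylglycerol lipase) were lost without single 30 DAF libraries, and that of CL8973.Contig1 with all 9 libraries (adjusted p = 0.10 in limma). CL12271.Contig2 was also lost under the replicate block (adjusted p = 0.069) and in its cluster sum (0.87). At an adjusted p of at most 0.01 there were 11214 DEGs, and 5 named unigenes were no longer called, the 4 lost without single 30 DAF libraries and DGAT CL6160.Contig2 (adjusted p = 0.011). With the replicate block 13531 unigenes were DEGs, 5988 higher and 7543 lower. The labels give replicate numbers but no shared origin, and deviations of same-numbered libraries correlated at -0.17, -0.07 and -0.07, so the numbers were not taken to pair the libraries. Depth limits low FPKM values, and changes from a stage at 0 move with the added value.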

Other observations

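The libraries at 60 DAF, which the comparison of 90 with 30 DAF did not use other than in the alternative with all 9 libraries and in the choice of the KEGG list, lay between the other stages for most DEGs. Of the 8418 unigenes that fell, 6878 had a 60 DAF mean between those of 30 and 90 DAF, and of the 7089 that rose 4064 did. After median-of-ratios scaling over the 9 libraries these numbers were 6161 and 5404. Of the 4064 rising unigenes between the stages 3532 were nearer to 30 DAF on the log2 scale, and 4016 of the 5404 were after scaling. Of the 6878 falling unigenes between the stages 3908 were nearer to 30 DAF, and 4365 of the 6161 were after scaling.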
